A study of Mus musculus with 7 samples.

Results

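A set of 10 genes of growth factor signalling in mouse muscle stem cells (MuSCs) is described here by chromatin accessibility: the receptors Fgfr1, Fgfr2, Fgfr3, Fgfr4, Met and Igf1r and the feedback inhibitors Spry1, Spry2, Spry3 and Spry4. These 10 of 21887 protein-coding genes in the RefSeq table were chosen by name. For each gene, peaks were taken that overlapped its span or the 20 kb on either side on mm10. Accessibility was measured by ATAC-seq, in which the Tn5 transposase cuts open DNA, on 5000 freshly sorted MuSCs per library. The libraries were 4 from Nedd4L-cKO and 3 from WT mice. In Nedd4L-cKO mice, which carry Nedd4L fl/fl and Pax7 cre/+, a Cre expressed from the Pax7 locus removes exon 15 of Nedd4L, the gene of a ubiquitin ligase, and leaves the enzyme without activity. The mice were males aged 5 to 6 weeks. The alleles that the WT mice carried were not given in the sources used here. Cells came from hindlimb muscle and were lysed right after sorting, and the labels name no culture or injury step.

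MuSCs rest in quiescence until injury or growth signals activate them. FGF receptors bind fibroblast growth factors, Met binds hepatocyte growth factor, and Igf1r binds insulin-like growth factors; all are receptor tyrosine kinases that signal through the Ras-ERK and PI3K-AKT pathways. Sprouty proteins restrain this signalling, and Spry1 is known for its role in keeping MuSCs quiescent.

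After filtering, libraries held between 14.4 M and 20.1 M tags (M stands for mega), and between 69302 and 79158 peaks. The third WT replicate was the only library from lane 2. Promoters of all 10 MuSC markers examined, Pax7 and Myf5 among them, carried a peak in all 7 libraries, while 0 of 5 immune markers did in any library. The other lists were mixed: 2 of 5 endothelial, 2 of 5 fibro-adipogenic, 4 of 5 pericyte and smooth muscle and 4 of 5 myofiber markers had a promoter peak in all 7 libraries. Pecam1, Cdh5, Ptprc and Pdgfra had none in any library, while Kdr, Tek, Dpt and Cd248 had one in all 7. Of 21440 protein-coding genes with a known strand, 59.7% had a promoter peak in all 7 libraries. The study lists as many mice of each genotype as there are libraries, so each library was taken as 1 mouse.

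Spry3 could not be measured. Its RefSeq span, listed on chromosome X at 101352 to 110912, lies far before the first peak of any library on that chromosome, at 6.05 Mb, and no list held peaks outside the assembled chromosomes. Its value is therefore missing, and 9 genes remain.

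All 9 promoters were open in every library. A promoter here means that a peak overlapped the transcription start site (TSS) ± 1 kb, and 59.7% of 21440 protein-coding genes with a known strand met this in all 7 libraries. The start sites were in 1 merged region each, which contained the TSS in 8 genes. In Fgfr2 the region, chr7:130264958-130266735, ended 73 bp inside the gene. The Spry4 region also covered the promoter of Arhgap26, a gene on the other strand, and the reads of this pair cannot be told apart.

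RefSeq windows of 300 bp around an annotated start are shown for 4 genes that differed in peak strength. Met and Fgfr2 had the highest promoter fold percentiles of the receptors, and Fgfr4 and Spry1 stand for an intermediate and a low one. Capitals mark the GC box GGGCGG on either strand. The windows are chr6:17463707-17464006 (+) for Met, chr7:130266759-130267058 (-) for Fgfr2, chr13:55152568-55152867 (+) for Fgfr4 and chr3:37639697-37639996 (+) for Spry1, and each sequence is written 5′ to 3′ along the gene.
Met: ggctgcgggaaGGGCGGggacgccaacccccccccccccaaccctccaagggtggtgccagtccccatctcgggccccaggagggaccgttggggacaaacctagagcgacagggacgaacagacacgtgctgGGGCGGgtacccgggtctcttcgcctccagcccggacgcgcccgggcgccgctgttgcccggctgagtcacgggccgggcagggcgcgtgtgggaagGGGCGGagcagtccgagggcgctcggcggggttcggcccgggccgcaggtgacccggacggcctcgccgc
Fgfr2: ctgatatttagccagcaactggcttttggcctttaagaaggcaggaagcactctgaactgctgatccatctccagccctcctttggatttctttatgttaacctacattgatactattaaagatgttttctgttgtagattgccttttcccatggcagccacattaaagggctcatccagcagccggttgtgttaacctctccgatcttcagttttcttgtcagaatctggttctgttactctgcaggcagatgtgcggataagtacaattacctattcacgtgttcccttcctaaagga
Fgfr4: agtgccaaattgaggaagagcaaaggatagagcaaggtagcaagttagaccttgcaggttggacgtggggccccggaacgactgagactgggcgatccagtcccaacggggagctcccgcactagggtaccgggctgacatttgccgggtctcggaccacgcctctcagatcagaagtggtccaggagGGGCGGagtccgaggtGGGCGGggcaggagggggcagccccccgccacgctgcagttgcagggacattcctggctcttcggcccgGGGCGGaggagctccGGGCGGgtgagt
Spry1: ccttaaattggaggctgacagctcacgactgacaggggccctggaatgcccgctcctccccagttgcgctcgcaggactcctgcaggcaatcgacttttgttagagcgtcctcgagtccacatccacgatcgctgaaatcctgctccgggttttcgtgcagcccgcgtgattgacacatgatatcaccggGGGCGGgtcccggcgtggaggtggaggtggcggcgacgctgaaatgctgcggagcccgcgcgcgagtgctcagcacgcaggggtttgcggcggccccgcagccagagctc

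The Met window was 75.7% G and C and held 3 GC boxes, and it lay wholly inside the promoter region. The Fgfr4 window held 4 GC boxes and the Spry1 window 1. The Fgfr2 window was 43.7% G and C, had 0 GC boxes, and overlapped the peak region by 0%. A GC box was present in 35.7% of 32851 RefSeq windows of this length, which were taken with or without a peak. It was present in 6 of 8 windows available for these genes (Fgfr3 has 2). Fgfr1 and Spry4 had no window in this set. The ratio of observed to expected CpG was 1.11 for Igf1r, 0.951 for Spry2, 0.935 for Spry1 and 0.282 for Fgfr2, against a median of 0.384. These are letters in the reference and say nothing of which factor bound.

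The readouts of the promoter peaks differed in order. Pileup is the mean coverage of tags over a peak, and fold enrichment is that coverage over the local background of the same library; both are given as percentiles among all peaks of a library, from 0 to 100. The 9 promoters had a median pileup percentile of 93.0 and a median fold percentile of 21.3. Over 11556 promoter regions of protein-coding genes open in all libraries, the medians were 85.7 for pileup and 78.3 for fold. The regions of these genes were also longer, with a median of 2357 bp against 1542.5 bp. The part that length played in the fold percentile was not tested. Low fold with high pileup was not particular to these genes. In Nedd4L-cKO, mean fold and pileup percentiles were 1.11 and 85.8 at the promoter of the pathway gene Dusp4 and 3.83 and 98.6 at Irs2. At the MuSC marker Myf5 they were 5.01 and 88.1. Other pathway promoters, such as Nras with 91.4 and 90.5, were high in both. These examples were picked after their values were seen.

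**Figure D1:**
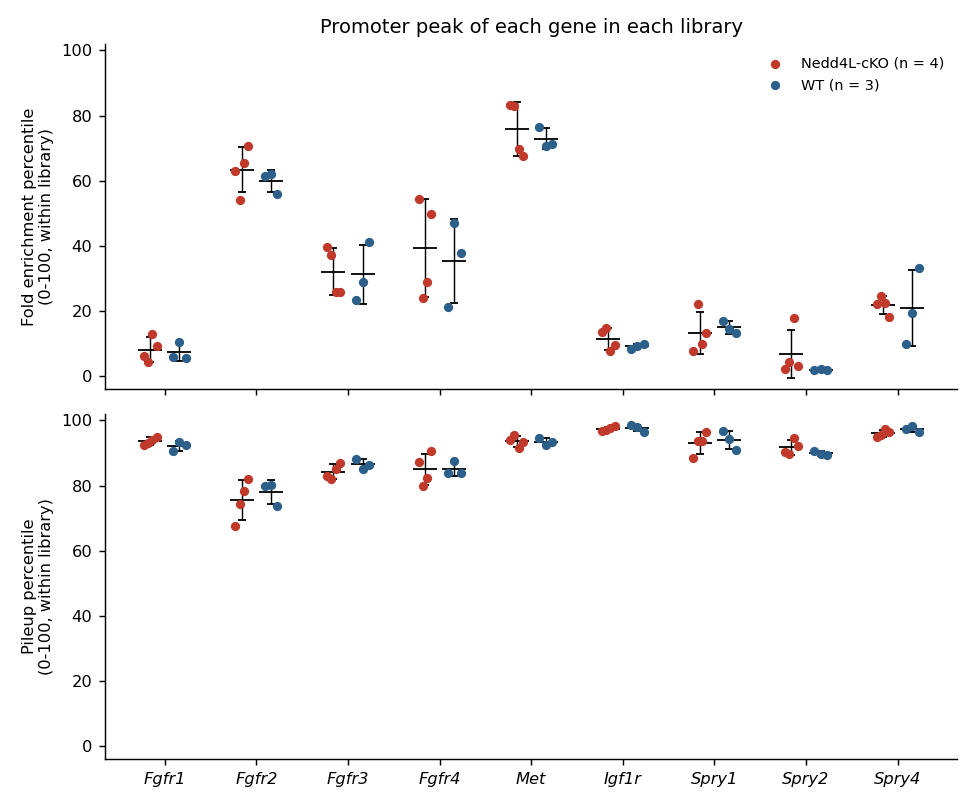
Percentile (0 to 100, within library) of the promoter peak by fold enrichment (top) and pileup (bottom) for 9 genes. Points are libraries, and black marks give the mean ± SD of 4 Nedd4L-cKO and 3 WT libraries; the groups overlap at every gene in both panels.

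Among receptors, Met had the strongest promoter by fold. Its fold percentiles were 83.3, 82.8, 69.6 and 67.6 in the Nedd4L-cKO libraries and 76.6, 70.8 and 71.3 in WT. The WT values all lay within the Nedd4L-cKO range. Fgfr2 followed, with 63.1, 54.2, 65.3 and 70.8 in Nedd4L-cKO and 61.5, 62.2 and 56.0 in WT. Met was above Fgfr2 in 6 of 7 libraries, although their ranges overlapped.

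Fgfr4, a receptor with high expression in the muscle lineage, varied most between libraries, with an SD of 13.2 fold percentile points over 7 libraries. Its fold percentiles were 54.4, 24.0, 28.9 and 49.6 in Nedd4L-cKO and 21.3, 47.0 and 37.8 in WT. Both genotypes thus spanned low and high values. Fgfr3 ranged from 23.4 to 41.2, and Fgfr4 was above it in 4 of 7 libraries, so this pair was not separated.

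The remaining receptors had low fold and high pileup. The Igf1r promoter had fold percentiles of 7.71 to 14.9 and the highest mean pileup percentile of the 9, at 97.6 ± 0.767 (SD, n = 7). Fgfr1, the main FGF receptor of MuSCs together with Fgfr4, had fold percentiles of 4.30 to 12.9 and pileup percentiles of 90.6 to 95.0. The Igf1r promoter was above it by fold in 5 of 7 libraries.

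The Sprouty promoters also ranked higher by pileup than by fold. Spry1 fold percentiles were 7.78, 22.3, 9.78 and 13.3 in Nedd4L-cKO and 16.9, 14.5 and 13.3 in WT. Its pileup percentiles were 88.5, 93.7, 93.6 and 96.3 in Nedd4L-cKO and 96.7, 94.2 and 91.0 in WT. The groups overlapped in both readouts. Spry4 had fold percentiles of 9.77 to 33.1 and pileup percentiles of 95.0 to 98.3. Its fold range overlapped that of Fgfr3, but Fgfr3 was above Spry4 by fold in all 7 libraries. Spry2 had pileup percentiles of 89.2 to 94.6. By fold, Spry2 was the lowest promoter, at 1.72 to 4.18 in 6 libraries and 17.7 in the third Nedd4L-cKO library.

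No promoter passed the test for a difference between genotypes. For limma, regions were ranked anew within each library among the 53245 called in every library. The ranks were turned into normal scores, whose unit is 1 SD of a standard normal distribution. The largest fold difference of the 9 (Nedd4L-cKO minus WT) was 0.40 ± 0.25 (SE) at Spry2, with an unadjusted limma p of 0.144. The largest pileup difference was -0.20 ± 0.12 at Spry4, with an unadjusted p of 0.149. Benjamini-Hochberg adjusted p-values of limma were 1.00 for all 9 promoters in both fits.

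**Figure D2:**
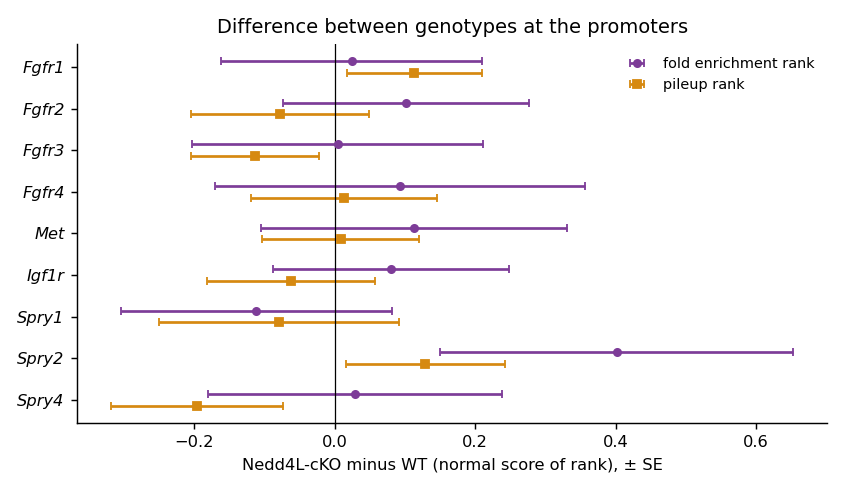
Difference between Nedd4L-cKO and WT at 9 promoters (x axis, normal score of the within-library rank) with its SE, for fold enrichment and pileup. The fold difference at Spry2, 0.40, is the largest, and no adjusted p is under 0.05.

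Beyond the promoters, the 9 windows held 103 merged regions, and 68 of them had a peak in every library. Of all 95163 merged regions, 56% were called in every library. Fgfr1 and Fgfr3 were the most constant: all 10 and all 5 of their regions were shared by the 7 libraries. In Spry4, 2 of 7 regions were shared, and in Fgfr2 4 of 9.

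The region with the highest fold percentile of each gene outside its promoter was at very different heights. The genes also offered unequal numbers of shared regions to choose from, and the heights were not adjusted for this. With the promoter counted, these numbered 23 in Igf1r and 12 in Met, but 2 in Spry2 and 2 in Spry4. The regions named for Spry2 and Spry4 were therefore their only shared ones outside the promoter. In Met it lay in the gene, at chr6:17478474-17479732, 15.8 kb after the start. Its fold percentiles were 99.8, 99.5, 99.7 and 96.2 in Nedd4L-cKO and 99.6, 98.7 and 99.7 in WT. It was therefore among the top peaks of every library, well above the Met promoter. In Igf1r the region lay 242.1 kb into the gene at chr7:68193751-68194957, with a median of 92.6. Fgfr2 had one at chr7:130214961-130216229 with a median of 87.6, and Fgfr3 one at chr5:33737594-33738653, just past its end, with 84.9.

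The others were lower. The region of Fgfr4, upstream at chr13:55135198-55136122, had a median fold percentile of 67.4, that of Spry4 at chr18:38578126-38579430 had 63.3, and that of Spry1 at chr3:37653507-37655043 had 57.1. In Fgfr1 it was chr8:25554532-25556232 with 37.6, and in Spry2 chr14:105890402-105891278 with 4.75. The Spry1 region lies 14.3 kb after the start and overlaps the RefSeq gene Gm46799; it also had a pileup percentile of 92.6.

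Fgfr4 held the highest median pileup percentiles of all these windows, in regions picked out after their values were seen. A region at its end, chr13:55168675-55169540, had pileup percentiles of 99.4 to 99.8 and fold percentiles of 17.6 to 30.5. A second, chr13:55171240-55172886, lay past the gene and had pileup percentiles of 99.1 to 99.7. Neither separated the genotypes. In Nedd4L-cKO replicate 2 the Fgfr1 region chr8:25520901-25522214 had a slightly higher pileup, 65.67, than these regions, 65.63 and 62.23.

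**Figure D3:**
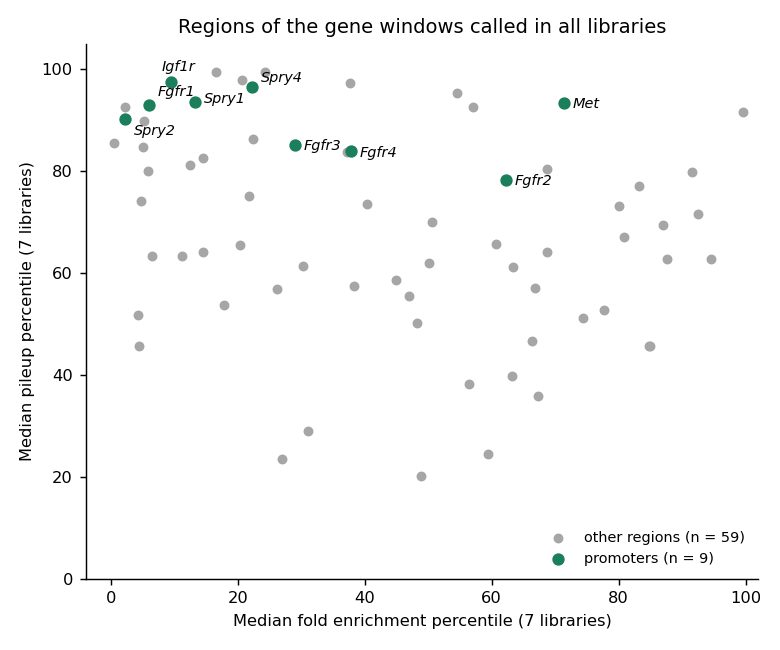
Median fold enrichment percentile (x) against median pileup percentile (y) over 7 libraries for 68 regions of the 9 windows, promoters named. The promoters lie above a pileup percentile of 78 while their fold percentiles run from 2.19 for Spry2 to 71.3 for Met.

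Peak numbers per window were compared next. Across the 9 windows there were 79, 82, 81 and 87 peaks in Nedd4L-cKO and 85, 89 and 84 in WT. The means were 82.2 ± 3.40 and 86.0 ± 2.65 (SD, n = 4 and n = 3), and the exact two-sided permutation test gave p = 0.229. Covered length was 82.5 ± 4.88 kb in Nedd4L-cKO and 83.3 ± 3.82 kb in WT (exact permutation p = 0.857). With 4 against 3 libraries, 0.0286 is the smallest p that the test can give.

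**Figure D4:**
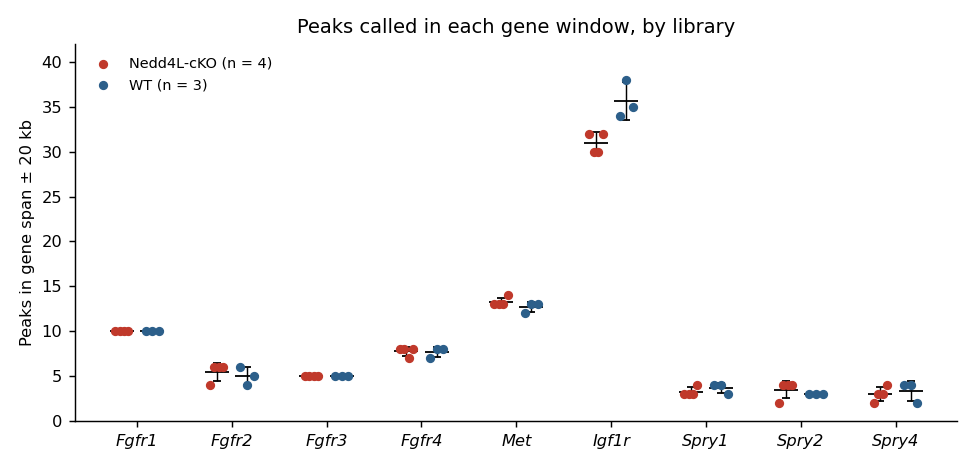
Number of peaks (y axis) in each gene span ± 20 kb by library, with mean ± SD of 4 Nedd4L-cKO and 3 WT libraries. In Igf1r the Nedd4L-cKO libraries have 30 to 32 peaks and the WT libraries 34 to 38; at the other genes the groups overlap.

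Igf1r was the only one of the 9 windows whose groups did not overlap. It held 32, 30, 30 and 32 peaks in Nedd4L-cKO and 34, 38 and 35 in WT, a mean of 31.0 ± 1.15 against 35.7 ± 2.08 (exact permutation p = 0.0286, unadjusted). Among 17935 protein-coding windows with a peak, 0.329% separated in this direction and 0.251% in the other, and 0.513% had an unadjusted p under 0.05. Of the 85 windows with a mean of 30 or more peaks, Igf1r was the 1 that separated in this direction (1.18%). This limit lies just below the Igf1r mean of 33 peaks, so the share is a description only. The exact permutation test cannot go below 0.0286. After adjustment over the 17935 windows a call was therefore out of reach unless most of them sat at that value. Within lane 1 the difference was -5.0 peaks, with p = 0.0667, the smallest that 4 against 2 libraries allow in the exact permutation test.

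The Igf1r window had 23 regions called in all libraries, which by that choice differ little in number, and 17 others. Of these 17, Nedd4L-cKO libraries held 7, 6, 4 and 7, and WT libraries 9, 12 and 10. The shared regions held 24 to 26 peaks in each library, so the counts of the 17 restate the difference in peak number. Where called, the 17 regions had a median fold percentile of 12.6 and a median pileup percentile of 29.0. The covered length of the window overlapped between the groups, at 24.7 to 31.6 kb in Nedd4L-cKO and 28.1 to 31.1 kb in WT (exact permutation p = 0.343). With peaks of a -log10 q of at least 5 alone, the difference in peak number was 0.33.

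**Figure D5:**
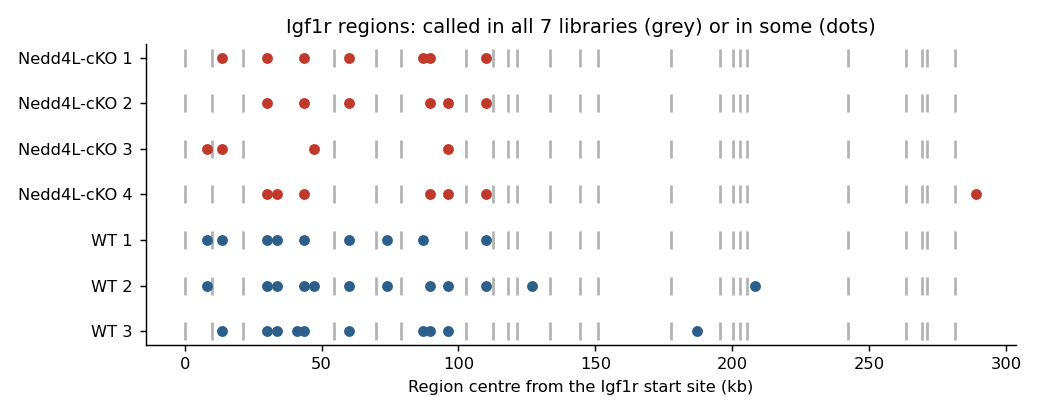
Regions of the Igf1r window by distance of their centre from the start site (x axis, kb) and library (y axis). Grey ticks are the 23 regions called in all 7 libraries, and dots are the 17 called in some; WT libraries have 9 to 12 dots and Nedd4L-cKO libraries 4 to 7.

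In the other 8 windows the groups overlapped. Fgfr1 had 10 and Fgfr3 5 peaks in every library. Met had 12 to 14 peaks, Fgfr4 7 or 8 and Fgfr2 4 to 6, and Spry1, Spry2 and Spry4 between 2 and 4. Exact permutation p-values of these 8 genes were 0.486 or above.

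The strength of the 68 shared regions was then tested. By fold rank, 0 of 68 passed an adjusted p of 0.05 in limma, as did 0% of all 53245 shared regions. At an unadjusted p under 0.05 there were 2 of 68, against 3.98% of all regions. By pileup rank there were 0 of 68 by either, against 0% and 2.71%. The median difference was 0.04 over the 68 regions and 0.01 over all regions by fold rank.

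The region with the lowest p for a higher Nedd4L-cKO rank by fold lay past the end of Met, at chr6:17583593-17584444. Its fold percentiles were 91.9, 97.4, 86.9 and 88.2 in Nedd4L-cKO and 83.5, 84.2 and 76.2 in WT. The normal scores differed by 0.56 ± 0.24 (SE; unadjusted p = 0.0466 and Benjamini-Hochberg adjusted p = 1.00 in the limma fit across all regions). For a lower rank it was chr7:68054210-68055470 inside Igf1r, with 32.5, 56.4, 48.8 and 24.3 in Nedd4L-cKO and 66.8, 68.5 and 63.2 in WT. The difference was -0.76 ± 0.26 (unadjusted p = 0.0164 and adjusted p = 1.00 in the same limma fit). At both regions the fold percentiles of the groups did not overlap, which held for 2 of the 68 regions and for 4.96% of all 53245. By pileup the corresponding regions were chr6:17589116-17590372 near Met (0.32 ± 0.17) and chr7:68102416-68104034 in Igf1r (-0.27 ± 0.12), and both groups overlapped there.

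No region of the 9 windows was called in every library of 1 genotype and in none of the other, which 0.151% of all merged regions were.

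Most promoters of the wider pathway had a peak in both genotypes. Of 50 listed genes, 46 had a promoter peak in all 7 libraries, against 59.7% of 21440 protein-coding genes; no test of this count was made. All 10 adaptors, all 10 Ras-ERK kinases, all 7 PI3K-AKT-mTOR genes, all 7 feedback inhibitors and all 4 ERK-induced transcription factors were among them. The exceptions were ligands and a coreceptor. Fgf6 and Igf2, which encode growth factors, and Klb, which encodes the coreceptor beta-Klotho, had no promoter peak in any library. For pathway genes only the TSS at the outer end of the span was examined, not other annotated starts. For Hgf, the ligand of Met, a peak was present in 2 Nedd4L-cKO libraries (of 4) and in 2 WT libraries (of 3).

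None of the 46 promoters passed the test by fold rank, with 0 adjusted and 0 unadjusted p-values under 0.05 in limma. Braf, a kinase upstream of ERK, had the lowest p for a higher rank in Nedd4L-cKO (0.35 ± 0.17, unadjusted p = 0.0744), and Sdc3, a heparan sulfate proteoglycan, for a lower one (-0.29 ± 0.17, unadjusted p = 0.129). Both adjusted p-values were 1.00.

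By likeness over 14 values, the fold and pileup percentiles of the promoter in 7 libraries, the genes nearest to Fgfr4 among 12792 promoters were Otoa and Nup43, at Euclidean distances of 26.0 and 26.6 percentile points. Nearest to Spry1 were Tubb2b and Pacs2, both at 13.7. The median distance of a promoter was 130.1 from Fgfr4 and 186.4 from Spry1.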

How the data were processed

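ATAC-seq libraries of sorted MuSCs were grouped by the genotype in their labels. Per the study's methods and notes, reads were trimmed with Trimmomatic 0.39, aligned to mm10 with BWA-MEM 0.7.17, filtered with SAMtools at a mapping quality above 30 and deduplicated with Picard 2.26.3. Per the file headers, the authors called peaks for each library alone, without a control, with MACS2 2.2.7.1 in broad mode (shift -100, extension 200 bp, q of 0.1 for broad and 0.05 for narrow peaks, paired-end mode off, 1 tag per position). The deposited pileup is a signal, the mean unscaled coverage over a peak. Fold enrichment, as deposited, is the ratio of that coverage to the background of the same library over 10000 bp or the genome. The authors' p-values and q-values are deposited as -log10 values. The 7 broad peak lists repeat these values and the gapped lists mark narrow peaks. No read counts per region were used here.

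Spans and promoter sequences came from RefSeq on GRCm38.p6, which is mm10. The strand was taken from RefSeq for 17492 and from GENCODE for 3948 genes, and the TSS is the outer end of the span. Exons and introns were not assigned. Peaks overlapping by 1 bp were merged across libraries, and a region took the highest peak of each library. No peak was identical between libraries. Exact permutation tests were two-sided on the difference of means over 35 labellings. Shared regions were tested with limma 3.58.1 (R 4.3.3; lmFit, eBayes) on normal scores of within-library ranks, with Benjamini-Hochberg adjustment over all 53245 regions, and the code was tested on simulated data. Alternatives covered peak sets, flanks, TSS windows, depth, lane and omitted libraries. Named regions were the promoter, the highest fold percentile outside it, those separating the genotypes and the lowest p in each direction and fit; pathway genes were those without a peak in some library and the lowest p in each direction. The members and lists were chosen with earlier results of these data known.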

Additional observations from a re-analysis of the deposited data

Results flagged for a closer look

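In each value of the 9 windows and promoters the most extreme of the 4 Nedd4L-cKO libraries was compared with the other 3 by Dixon's ratio at its usual limit. Of 38 values, 7 were flagged. Chance flags about 1 in 20 groups of values without ties. In each flagged peak count the other 3 libraries were tied, which fixes the ratio at 1 whatever the gap. The rate of 1 in 20 does not apply to those counts. The first Nedd4L-cKO library had 4 peaks in the Fgfr2 window against 6 in the others, and 2 in the Spry2 window against 4. The third had 7 peaks at Fgfr4 against 8, and a fold percentile of 17.7 at the Spry2 promoter against 1.98 to 4.18. The fourth, which had the most tags, had 14 peaks at Met against 13, 4 at Spry1 against 3, and a covered length of 89.7 kb over the windows against 79.1 to 80.8 kb. The part of depth in these values was not tested.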

How the results depend on the processing

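No region of the 9 windows and no pathway promoter passed an adjusted p of 0.05 in limma under any of the alternatives. For the number of peaks 0 of 9 genes passed in any setting, but 1 gene alone could not have passed after adjustment in so few libraries. All 9 promoters kept a peak in all libraries, except with a -log10 q of at least 5, where 8 did; the pathway count ran from 39 to 47. With that q limit the difference in peaks over the windows (Nedd4L-cKO minus WT) turned from -3.75 to 1.75 and in covered length from -0.821 to 2.64 kb; the cause was not tested. Leaving out 1 library gave covered-length differences from -3.23 to 0.327 kb, above 0 without Nedd4L-cKO replicate 2, WT replicate 1 or WT replicate 2, and peak differences from -5.33 to -2.25.

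The Igf1r difference of -4.67 peaks kept its p of 0.0286 (exact permutation) without a flank or with only peaks lying mostly inside the window. It was 0.33 with the q limit, -3.5 with equal peak numbers (exact permutation p = 0.114), -2.33 with peaks that hold a narrow peak (exact permutation p = 0.571) and -4.58 with a 50 kb flank (exact permutation p = 0.0571). Without 1 library it ran from -5.5 to -3.5, in designs whose smallest exact p is above 0.05. The replicate block, with labels exchanged within numbers 1 to 3, gave -5.0 (exact permutation p = 0.25, the smallest it allows). No count could therefore reach an exact permutation p under 0.05 with the block. In limma with the block, 0 regions of the windows and 0 pathway promoters passed, as without it. Same-numbered libraries had correlations of deviations of -0.123, 0.033 and -0.122, and libraries of unlike number from -0.151 to 0.154. With so few libraries, these values cannot decide whether the numbers pair them.

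Small differences that did not pass the test also changed sign: Fgfr2 to -0.17 with the q limit and -0.083 with narrow peaks, Fgfr4 to -0.17 with narrow peaks, Met to -0.33, Spry1 to 0.25 and Spry2 to -0.25 with narrow peaks, Spry1 to 0.25 and Spry4 to 0.083 with equal peak numbers, Spry2 to -0.17 with no flank, Spry4 to 0.5 with a 50 kb flank, and Fgfr4 from -0.25 to 0.33 without 1 library. The share of peaks that hold a narrow peak was 92.5% and 92.8% in WT replicates 1 and 2. It was 84.7% to 87.3% in the other libraries, so the narrow-peak setting removed unequal shares. The effects of this and of depth on these counts were not tested. The library with the most kept tags, Nedd4L-cKO replicate 4 with 20.1 M, had the most peaks, 79158. Nedd4L-cKO replicate 3 had 18.4 M kept tags and 69900 peaks, and WT replicate 3 had 14.4 M and 72350.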
